A study of Rattus norvegicus with 2 samples.

Results

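The nuclear genes of the mitochondrial respiratory chain and ATP synthase were examined in rat RNA labelled as left ventricle, on 1 array after cocaine administration and 1 control array. A gene was a member when its symbol in the platform annotation started with Nduf (complex I), Uqcr (complex III), Cox4 to Cox8 (complex IV) or Atp5 (ATP synthase, also called complex V), or was Sdha, Sdhb, Sdhc or Sdhd (complex II). This took in 80 of 15037 named genes, each with 1 probe set. They comprised 38 genes of complex I, 4 of complex II, 8 of complex III, 16 of complex IV and 14 of complex V, with Ndufa4 and its relative Ndufa4l2 counted under complex IV, where the Ndufa4 protein sits. Of 118 protein-coding RefSeq symbols of the GRCr8 assembly that have these name forms, 38 had no named probe set and were not analysed here, among them Cox7a1, Cox7c, Atp5f1c and Atp5mc3, as were the subunits encoded in mitochondrial DNA.

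The cocaine array was labelled as male SD rat, and cocaine was given at 20 mg/kg daily through the tail vein for 14 days. The control array was also labelled as male SD rat, which the labels give as untreated and the methods of the study as injected with saline on the same schedule. The study had several rats a group, and the sources used here do not say whether an array held RNA of a single rat or of a pool. By the methods of the study the rats were Sprague Dawley animals aged 8 weeks when dosing began, and hearts were taken a day after the last injection. Each condition had 1 Clariom S array, a microarray that reads each transcript with a set of short probes, so the differences below carry no SD and no p-value and describe these 2 arrays only. The measure was the deposited normalized intensity, a linear brightness with no unit, and the log2 fold change was the log2 cocaine intensity minus the log2 control intensity.

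The respiratory chain passes electrons from NADH through complex I, and from succinate through complex II, to ubiquinone, then through complex III to cytochrome c and through complex IV (cytochrome c oxidase) to oxygen. Complexes I, III and IV pump protons out of the mitochondrial matrix, and ATP synthase uses their return to make ATP. Heart muscle is among the tissues richest in these complexes, and some complex IV subunits exist as a general isoform and a heart and skeletal muscle isoform, of which Cox6a2, Cox7a1 and Cox8b are the muscle forms in rodents. Subunits of the chain are made from both nuclear and mitochondrial genes, and many nuclear ones carry sites for the transcription factors NRF1, GABP (also called NRF2) and YY1 in their promoters.

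The tissue label was checked against cell markers. Each array had all 15 measured markers of alveolar and airway epithelium above the background limit, their median being at percentile 99.7 of the named genes. The limit, a stand-in for a detection flag, was the level under which 95% of the 1155 named odorant and vomeronasal receptor genes fell, 64.1 with cocaine and 71.5 in the control. Of 22 measured cardiomyocyte markers, 17 were above it with cocaine and 10 in the control, with medians at percentiles 40.6 and 30.3. On arrays labelled left ventricle the cardiomyocyte markers thus had medians below that of all named genes and the lung epithelium markers were very bright, and respiratory chain RNA, which nearly every cell type makes, was not assigned to a cell type. In bulk tissue, a change in the share of a cell type and a change in RNA per cell cannot be told apart.

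Promoter windows are shown for 5 members on which the results turn, namely the muscle isoform Cox6a2, the muscle isoform Cox8b, its general counterpart Cox8a, and Uqcr10 of complex III and Atp5po of ATP synthase, which had the largest differences of members above the background limit on both arrays. Each runs from 250 bases before to 50 bases after the RefSeq start of the gene (GRCr8), read 5′ to 3′ along the gene, and capitals mark motif matches on either strand.
Cox6a2: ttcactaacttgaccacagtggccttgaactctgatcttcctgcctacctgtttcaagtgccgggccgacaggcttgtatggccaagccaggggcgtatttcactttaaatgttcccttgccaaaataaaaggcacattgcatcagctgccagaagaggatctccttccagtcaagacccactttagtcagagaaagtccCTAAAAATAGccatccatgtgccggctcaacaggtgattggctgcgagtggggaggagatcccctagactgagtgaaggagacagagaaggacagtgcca
Cox8b: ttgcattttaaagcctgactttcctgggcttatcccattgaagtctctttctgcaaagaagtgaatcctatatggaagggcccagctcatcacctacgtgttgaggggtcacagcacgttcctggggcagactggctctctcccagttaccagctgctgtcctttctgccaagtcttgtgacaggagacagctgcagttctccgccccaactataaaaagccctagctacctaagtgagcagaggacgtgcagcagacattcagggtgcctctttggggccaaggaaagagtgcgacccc
Cox8a: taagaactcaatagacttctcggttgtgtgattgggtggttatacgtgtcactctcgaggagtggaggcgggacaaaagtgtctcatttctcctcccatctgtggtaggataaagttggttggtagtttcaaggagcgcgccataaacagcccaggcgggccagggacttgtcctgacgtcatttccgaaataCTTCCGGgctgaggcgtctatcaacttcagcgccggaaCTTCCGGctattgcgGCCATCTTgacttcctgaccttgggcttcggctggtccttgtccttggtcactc
Uqcr10: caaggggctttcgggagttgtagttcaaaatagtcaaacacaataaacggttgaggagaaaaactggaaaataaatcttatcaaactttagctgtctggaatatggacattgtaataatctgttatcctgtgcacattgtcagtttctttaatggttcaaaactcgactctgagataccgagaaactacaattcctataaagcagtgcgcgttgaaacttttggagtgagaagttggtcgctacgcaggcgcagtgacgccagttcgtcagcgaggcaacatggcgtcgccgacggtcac
Atp5po: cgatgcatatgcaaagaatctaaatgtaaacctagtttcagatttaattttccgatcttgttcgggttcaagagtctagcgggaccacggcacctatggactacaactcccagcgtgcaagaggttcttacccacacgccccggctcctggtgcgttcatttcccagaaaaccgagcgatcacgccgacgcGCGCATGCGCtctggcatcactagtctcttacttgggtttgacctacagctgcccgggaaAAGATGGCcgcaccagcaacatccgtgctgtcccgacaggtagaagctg
The window of Cox6a2 lies at chr1:192219667-192219966, minus strand, and its capitals mark a MEF2 motif, the site of a muscle transcription factor family. That of Cox8b, at chr1:205408224-205408523, minus strand, held none of the motifs searched. In Cox8a, at chr1:213833574-213833873, minus strand, the capitals mark 2 GABP motifs and a YY1 motif. In Atp5po, at chr11:44657434-44657733, minus strand, they mark overlapping matches of the NRF1 motif on both strands, followed by a YY1 motif. The window of Uqcr10, at chr14:83791865-83792164, minus strand, held no match, nor did that of Uqcrfs1, the other member past 1.5-fold, which is not shown. No window was available for the general isoform Cox6a1, so it was not searched.

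Motifs were counted over the 71 members with a window and over the windows of all 27457 genes that had one. No filter on gene type or level was applied to the 27457, so they were not matched to the members. The NRF1 motif (GCGCATGCG or GCGCACGCG) was found in 10 of 71 member windows, or 14.1%, against 3.26% of all windows. The GABP motif (CCGGAAG) was found in 22, or 31.0%, against 9.22%, and the YY1 motif (AAGATGGC) in 14, or 19.7%, against 3.44%. The MEF2 motif (CTAWWWWTAR, W being A or T and R being A or G) was found in 1, Cox6a2. This was 1.41% of the member windows, under the 1.91% of all windows. A match is a run of letters and not a measured binding site, and the motif classes did not enter the comparison of the arrays.

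The members were bright on both arrays and differed little between them. Intensities spanned 38.9 to 34883 with cocaine (median 2463) and 43.5 to 28097 in the control (median 1859). These medians lay at percentiles 81.2 and 78.6 of the named genes. Above the background limit were 79 of the 80 with cocaine and 78 in the control, against 10117 and 9951 of all 15037 named genes. The muscle isoform Cox8b was under the limit on each array and the muscle isoform Cox6a2 in the control alone. Since binding strength varies between probe sets, the order of levels between genes is approximate.

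**Figure D1:**
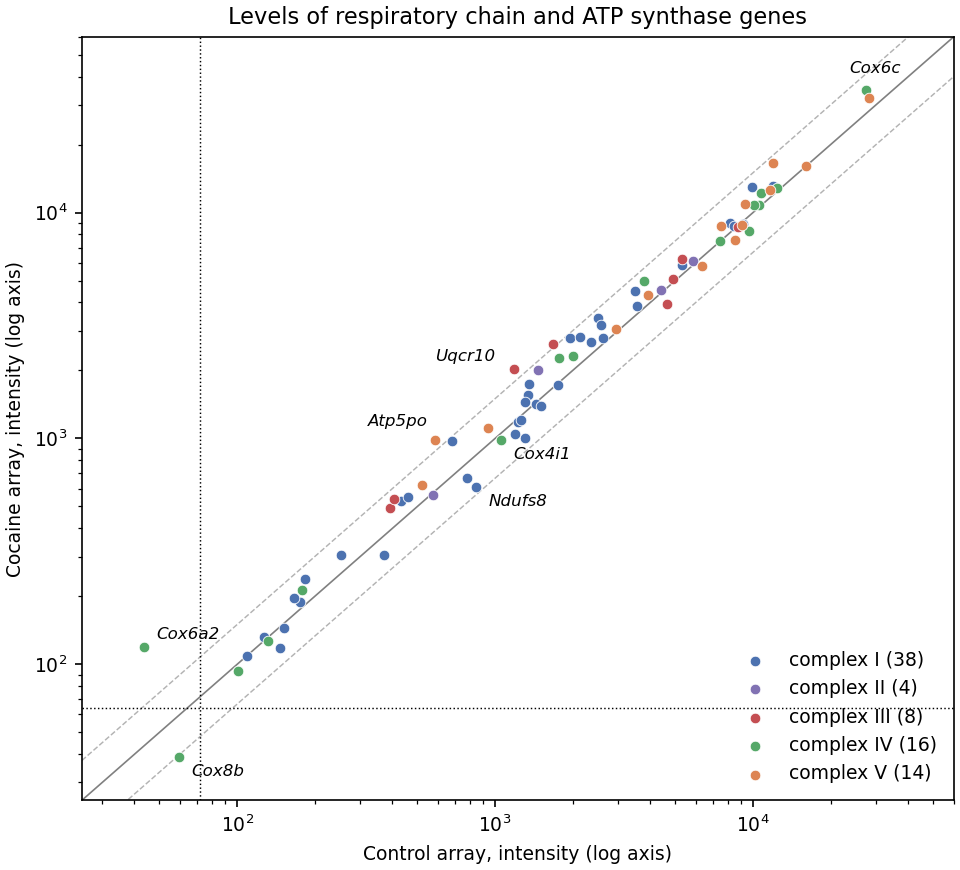
Intensity of the 80 members on the cocaine array (vertical, log axis) against the control array (horizontal, log axis), 1 point per gene, coloured by complex. The solid line marks equality, the dashed lines 1.5-fold and the dotted lines the background limits of 64.1 and 71.5. The points follow the equality line over the whole range, and Cox6a2 and Cox8b stand apart at the dim end.

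With cocaine 55 members were higher and 25 lower. The median log2 fold change was 0.13, between quartiles of -0.03 and 0.28. Over all named genes the median was 0.02, with quartiles of -0.20 and 0.24. The share of members that were higher was 68.8%, against 52.4% of all named genes and 57.5% of the 9763 named genes above the limit on both arrays. This share depends on how the arrays are put on a common scale. After quantile normalization of the arrays it was 57.5%, and after a loess correction for level it was 58.8%, with medians of 0.06 and 0.07, while all named genes then stood at 49.8% and 50.4%. Centring each array on its median gave 66.3%. Quantile normalization changed the sign of 9 members and loess that of 8, all of them slightly higher before.

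Differences of some size were few. With cocaine, 4 of 80 members were higher by 1.5-fold or more, or 5.0%, which is close to the 4.63% of all named genes, and of the 78 above the limit on both arrays 3, or 3.85%, against 4.21%. The 4 genes were Cox6a2, Uqcr10, Atp5po and Uqcrfs1. At least 1.5-fold lower was 1 of 80 members, against 4.95% of all named genes, and this was Cox8b, which was under the background limit with cocaine and in the control. Of the 78 above the limit on both arrays 0 were, against 2.83%. Cox6a2 alone passed 2-fold at deposited values, against 0.698% of all named genes, but its control value was under the limit, and with that value raised to the limit it no longer passed. At a lower threshold, a log2 difference of 0.32, 19 members, or 23.8%, were higher, against 17.6% of all named genes, and of the 78 above the limit 18, or 23.1%, against 18% of such genes. The count of 19 was 11, or 13.8%, under both quantile normalization and loess, when 16.0% and 16.2% of all named genes passed, so the members exceeded the background only at the deposited scaling and after median centring, or with the floor at the limit. At the same threshold only 3 members, or 3.75%, were lower, against 16% of all named genes, and 2 of the 78, or 2.56%, against 11.5%. These 3 were Cox8b and the complex I genes Ndufs8 and Ndufb11, and Ndufs7 and the complex III gene Uqcr11 joined them under quantile normalization and under loess, which made 5, or 6.25%, against 16.2% and 16.0%.

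**Figure D2:**
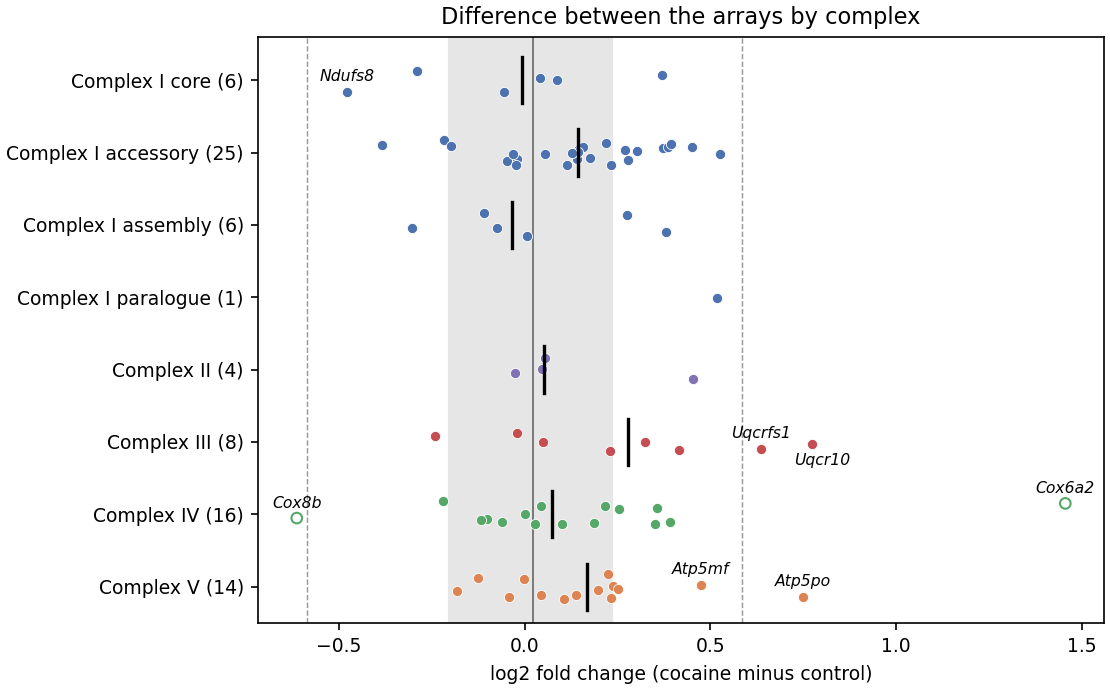
log2 fold change (cocaine minus control, horizontal) of each member by complex, with complex I split by role (vertical, number of genes in brackets), with black bars at the medians of groups of more than 1 gene. Open circles mark genes under the background limit on at least 1 array. The grey band spans the quartiles of all named genes, -0.20 to 0.24, the grey line their median, 0.02, and the dashed lines 1.5-fold. The complex III median of 0.28 lies beyond the band, while those of complexes II, IV and V lie inside it.

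In complex I, 25 of 38 genes, or 65.8%, were higher with cocaine, against 52.4% of all named genes and 57.5% above the limit. None was past 1.5-fold in either direction, against 4.63% of all named genes higher and 4.95% lower. The median log2 fold change of the complex was 0.13, and 0.07 under quantile normalization and loess. Complex I takes electrons from NADH, and its nuclear core subunits, conserved from bacteria, form the arm that holds the flavin and the iron-sulfur clusters. Of these core subunits 6 were measured. Ndufv1, which binds NADH and the flavin, stood at 1745 with cocaine and 1351 in the control, a log2 fold change of 0.37. Ndufs1, the largest subunit and a carrier of iron-sulfur clusters, stood at 2776 against 2615 (0.09), and Ndufv2, another cluster subunit, at 8681 against 8426 (0.04). These small values did not keep their sign, with Ndufs1 at -0.01 under quantile normalization and 0.00 under loess, and Ndufv2 at -0.01 and -0.03. The remaining core subunits were lower. Ndufs8, which carries clusters near the ubiquinone end, stood at 609 against 847, the lowest log2 fold change of the complex at -0.48. Ndufs7, which holds the last cluster of the chain inside the complex, stood at 304 against 372 (-0.29), and Ndufs3 at 1209 against 1256 (-0.06). The 6 core subunits thus split 3 to 3, with a median of -0.01, or -0.07 under quantile normalization and -0.08 under loess.

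The 25 accessory subunits of complex I, which surround the core and are needed for its assembly or stability, had a higher median than the core. Of these, 18 were higher and 7 lower, and the median log2 fold change of 0.14 was 0.09 under quantile normalization and 0.08 under loess. Ndufa11, a membrane-arm subunit, stood at 978 with cocaine and 678 in the control, the highest of the complex at 0.53. Next to it was Ndufa10l1, annotated as a relative of the subunit gene Ndufa10, at 2789 against 1948 (0.52), whereas Ndufa10 itself stood at 5878 against 5324 (0.14). Ndufa7 followed with 3414 against 2500 (0.45), and Ndufs4, whose loss in humans and mice causes a Leigh-like encephalopathy, with 2813 against 2141 (0.39). Among accessory subunits with high readings, Ndufb3 stood at 13162 against 11943 (0.14) and Ndufc2 at 12996 against 9937 (0.39). Ndufb11, an X-linked membrane-arm subunit, was the lowest with 1005 against 1311 (-0.38). Next among the lower ones came Ndufa12 at -0.22 and Ndufb2 at -0.20.

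The 6 assembly factors of complex I, which help to build it but are not part of the finished enzyme, had a median intensity of 186 with cocaine and 167 in the control and split 3 to 3. Ndufaf5 had 240 against 184 (0.38) and Ndufaf1 305 against 252 (0.28), whereas Ndufaf6 had 119 against 146 (-0.30). Ndufaf8 stood at 1394 against 1505 (-0.11), and their median log2 fold change was -0.03.

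Complex II, succinate dehydrogenase, is also an enzyme of the citrate cycle and has no subunit from mitochondrial DNA. Sdha, the flavoprotein that oxidizes succinate, stood at 4533 with cocaine and 4387 in the control (log2 fold change 0.05). Sdhb, the iron-sulfur subunit, stood at 6108 against 5874 (0.06). The membrane anchor subunits differed from each other, with Sdhd at 2009 against 1466 (0.45) and Sdhc at 563 against 572 (-0.02). The median of the 4 genes was 0.05, and it turned to -0.04 under quantile normalization and -0.03 under loess. Sdha and Sdhb changed sign there too, so that only Sdhd was higher at every scaling tried.

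Complex III, the cytochrome bc1 complex, had the highest median of the 5 complexes at 0.28, or 0.21 under both quantile normalization and loess. Of its 8 genes 6 were higher, or 75%, against 52.4% of all named genes and 57.5% above the limit. Under quantile normalization and loess 62.5% of the 8 were higher, against 49.8% and 50.4% of all named genes. Past 1.5-fold were 2 of the 8, against 4.63% of all named genes, and shares of so few genes are coarse. Uqcr10, a small subunit next to the iron-sulfur protein, stood at 2024 with cocaine and 1184 in the control, a 1.71-fold difference (log2 fold change 0.77). Uqcrfs1, the Rieske iron-sulfur protein that carries electrons from ubiquinol towards cytochrome c1, stood at 2612 against 1680, a 1.55-fold difference (0.64), which was 0.56 under quantile normalization and 0.55 under loess and then under 1.5-fold. Uqcrq stood at 542 against 407 (0.41) and the core protein gene Uqcrc1 at 492 against 392 (0.33).

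The other complex III genes were closer to equality. Uqcrc2, the partner of Uqcrc1, stood at 5083 with cocaine and 4913 in the control (0.05), and Uqcrb at 6224 against 5309 (0.23). The value of Uqcrc2 turned to -0.02 under quantile normalization and -0.03 under loess. Uqcrh, the hinge protein that contacts cytochrome c1, stood at 8605 against 8727 (-0.02) and Uqcr11 at 3935 against 4655 (-0.24). The 8 genes of complex III thus spanned log2 fold changes of -0.24 to 0.77.

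In complex IV, 11 of 16 genes, or 68.8%, were higher with cocaine, against 52.4% of all named genes and 57.5% above the limit. The median log2 fold change of the complex was 0.07, and 0.00 under quantile normalization and loess. Of the subunits that the study also chose for its qPCR panel, Cox4i1, the general isoform of the subunit on which ATP acts as a regulator, stood at 980 with cocaine and 1051 in the control (-0.10). Cox5a stood at 2323 against 1999 (0.22). Cox6a1 stood at 12791 against 12392 (0.05), a value that turned to -0.04 under quantile normalization and -0.02 under loess. The fourth member of that panel, Cox6a2, is described with the isoforms.

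Differences of the other general subunits of complex IV were uneven. Cox5b, which binds zinc, stood at 4976 against 3791 on the control array (0.39), Cox7b at 2270 against 1774 (0.36), and Cox6c at 34883 against 27322 (0.35). Ndufa4 stood at 12263 against 10764 (0.19) and Cox7a2 at 10784 against 10047 (0.10). Cox6b1 had 10796 against 10587 (0.03), and Cox7a2l, which links complexes III and IV in supercomplexes, had 7484 against 7473 (0.00). Cox6b1 turned to -0.04 under quantile normalization and loess, and Cox7a2l to -0.08 under quantile normalization and -0.07 under loess. The genes of complex IV that were lower were Cox4i1, Cox4i2 and the 3 Cox8 genes, and under quantile normalization and loess Cox6a1, Cox6b1 and Cox7a2l made them 8 of 16.

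The isoforms of a subunit were set side by side by their difference between the arrays, since levels of different probe sets are comparable only roughly. Cox6a2, the muscle isoform of subunit 6a, stood at 119 on the cocaine array, above the background limit of 64.1, and at 43.5 on the control array, under the limit of 71.5. With the control value raised to the limit, taken here and for all such bounds as the higher of both, 71.5, Cox6a2 was at least 1.67-fold higher with cocaine. Cox6a1, its general counterpart, was bright and nearly equal on both arrays. The difference of the log2 fold changes, Cox6a2 minus Cox6a1, was 1.41 at deposited values and 0.69 with values under the limit raised to it.

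The other muscle isoform measured was dim on both arrays. Cox8b stood at 38.9 with cocaine and 59.5 in the control, under the limit on both, so no fold is given for it, while its general counterpart Cox8a stood at 8279 against 9636 (-0.22). Cox8c, a form known from testis, stood at 93.0 against 100.8 (-0.12), close above the limit. Cox4i2, the form of subunit 4 that is abundant in lung and responds to oxygen, stood at 127 against 132 (-0.06), and its log2 fold change was 0.04 above that of Cox4i1. Ndufa4l2, a hypoxia-induced relative of Ndufa4, stood at 213 against 179 (0.25), which was 0.07 above Ndufa4. Of the muscle isoforms, Cox6a2 was thus above the limit on the cocaine array alone, Cox8b on neither, and Cox7a1 was not analysed here.

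**Figure D3:**
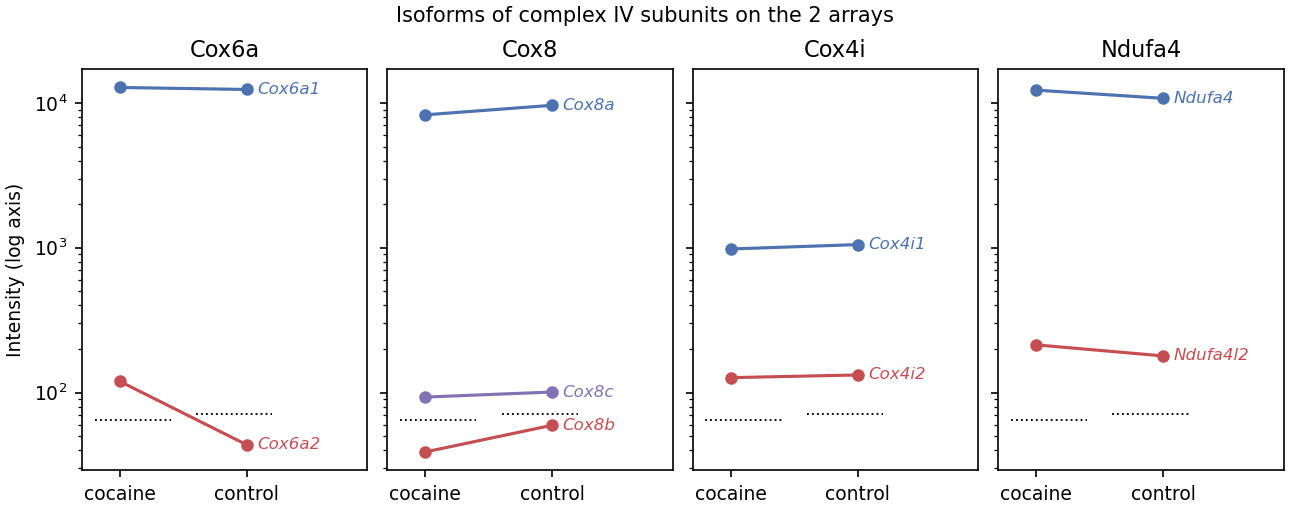
Intensity (vertical, log axis) on the cocaine array (left) and the control array (right) of isoforms of complex IV subunits, 1 line per gene, with the background limit of each array as a dotted line. Lines show the difference of each gene, and heights are not comparable between genes. Cox6a2 crosses the limit between the arrays, Cox8b lies under it on both, and the lines of the other genes are nearly flat.

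Cox6a2 differed in the same direction as most cardiomyocyte markers. Of the 22 measured markers of that list, 19 were higher on the cocaine array and 14 at least 1.5-fold higher, with a median log2 fold change of 0.95. Of all named genes, 52.4% were higher and 4.63% at least 1.5-fold higher at deposited values. With values under the limit raised to it, 15 of the 22 markers were higher and 9 at least 1.5-fold higher, with a median of 0.49. At that floor 38.8% of all named genes were higher. The list had a summed intensity of 66508 with cocaine and 52295 in the control. Slc25a4, the heart and muscle isoform of the ADP/ATP carrier that is also made elsewhere, gave 51215 and 41210 of these sums. Against the majority, Myl2, the ventricular myosin light chain, stood at 6344 against 7778 (-0.29). Ckm, the muscle creatine kinase, stood at 52.6, under the limit, against 85.6, and Myl3, the third lower marker, was under the limit on both arrays. No marker was at 0, but on the control array 12 of the 22 lay under the limit. The 12 measured skeletal muscle markers had a median of 0.03, with 2 above the limit on each array and sums of 563 and 535. Brown adipocytes also make muscle-form subunits of complex IV in rodents. Of the 7 measured markers of that cell type, 5 were higher, against 52.4% of all named genes, and their median was 0.21. Once values under the limit were raised to it, 2 were higher, against 38.8% of all named genes, and their median was 0. The sums of the 7 were 1012 with cocaine and 750 in the control, of which Cidea gave 765 and 541. Ucp1, the defining protein of brown fat, lay under the limit on both arrays at 13.6 and 12.9. The part of muscle or fat cells in the Cox6a2 difference was not tested.

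In ATP synthase, 10 of 14 genes, or 71.4%, were higher with cocaine, against 52.4% of all named genes and 57.5% above the limit. The median log2 fold change of the 14 was 0.17, or 0.09 under quantile normalization and 0.10 under loess. The enzyme has a catalytic F1 head in the matrix, a proton-conducting ring in the membrane and a peripheral stalk that holds them together. The catalytic beta subunit gene Atp5f1b stood at 32239 with cocaine and 28097 in the control (0.20), and the alpha subunit gene Atp5f1a at 16061 against 16075 (0.00). Of the small F1 subunits, Atp5f1d had 3037 against 2947 (0.04) and Atp5f1e 12531 against 11649 (0.11). The value of Atp5f1d turned to -0.06 under quantile normalization and -0.04 under loess. The median of the 4 F1 genes was 0.07, and it turned to -0.01 under quantile normalization and 0.00 under loess.

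The stalk genes of ATP synthase varied more. Atp5po, which encodes OSCP, the link from the stalk to the F1 head, stood at 983 with cocaine and 585 in the control, a 1.68-fold difference (0.75) that was 0.69 and 0.68 under quantile normalization and loess. Atp5pd had 10903 against 9274 (0.23) and Atp5pf 4326 against 3932 (0.14), whereas Atp5pb, the stalk subunit b, had 7538 against 8550 (-0.18). Of the membrane genes, Atp5mf stood at 16648 against 11980 (0.47). The ring subunit c is encoded by several genes whose mature protein is the same, and of these Atp5mc1 stood at 1109 against 940 (0.24) and Atp5mc2 at 8843 against 9102 (-0.04). Atp5if1, which inhibits ATP breakdown by the enzyme, stood at 5787 against 6314 (-0.13).

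The members were then set beside genes of related function. Electron carriers and ubiquinone synthesis genes had a median log2 fold change of 0.26, with 10 of 14 higher, and 0.18 to 0.19 after quantile normalization or loess. Etfa, which passes electrons from fatty acid oxidation to ubiquinone, stood at 3845 with cocaine and 2737 in the control (0.49), and Coq2, an enzyme of ubiquinone synthesis, at 1536 against 1118 (0.46). Among pyruvate dehydrogenase and citrate cycle genes 11 of 14 measured were higher with a median of 0.21, against 9 of 14 and 0.13 under quantile normalization and 10 of 14 and 0.13 under loess. They were led by Pdha1 at 14174 against 9591 (0.56) and Suclg1 at 2702 against 1998 (0.44). Of 17 measured genes of other mitochondrial proteins 14 were higher with a median of 0.29, or 11 under quantile normalization and loess, with medians of 0.24 and 0.23. They were led by Sod2, the superoxide dismutase of the matrix, at 23702 against 14884 (0.67), and by Chchd3, a protein of the cristae junctions, at 5047 against 3503 (0.53). In these lists 0 of 14, 0 of 14 and 1 of 17 genes were at least 1.5-fold higher, against 4.63% of all named genes. None were at least 1.5-fold lower, against 4.95%. Higher at all on the cocaine array were 52.4% of all named genes and 57.5% of those above the limit on both arrays. Under quantile normalization and loess, 49.8% and 50.4% of all named genes were higher.

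Assembly factors with other name forms and regulators were less even. Of 32 measured assembly factors of complexes I to V, 18, or 56.3%, were higher and 14 lower, against 52.4% of all named genes higher. Their median of 0.05 was 0.01 and 0.00 under quantile normalization and loess. Nubpl, an iron-sulfur cluster factor of complex I, stood at 291 with cocaine and 181 in the control (0.68), and Coa7, a complex IV factor, at 99.0 against 63.3, the control value under the limit, which made it at least 1.38-fold higher. Surf1, a complex IV factor whose loss in humans causes Leigh syndrome, stood at 870 against 1327 (-0.61). It was the only gene of the 32 at least 1.5-fold lower at the deposited scaling, against 4.95% of all named genes. At least 1.5-fold higher were 2 of the 32, or 6.25%, against 4.63%. These were Nubpl and Coa7, and with values under the limit raised to it only 1 of the 32 passed. The 15 genes listed as regulators took in Higd1a, which binds complex IV, and its relative Higd2a. Of the 15, 10 were higher with a median of 0.14, against 52.4% of all named genes and 57.5% above the limit. Under quantile normalization and loess 9 were higher, with medians of 0.11 and 0.10, against 49.8% and 50.4% of all named genes. Higd1a, a hypoxia-induced protein that binds complex IV, stood at 102 against 63.2, at least 1.42-fold higher with the control value raised to the limit, and Ppargc1b, a coactivator of mitochondrial biogenesis, at 58.1 against 82.9, the cocaine value under the limit, at least 1.16-fold lower with that value raised to 71.5. Higd2a, a relative of Higd1a above the limit on both arrays, stood at 751 against 1032 (-0.46).

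**Figure D4:**
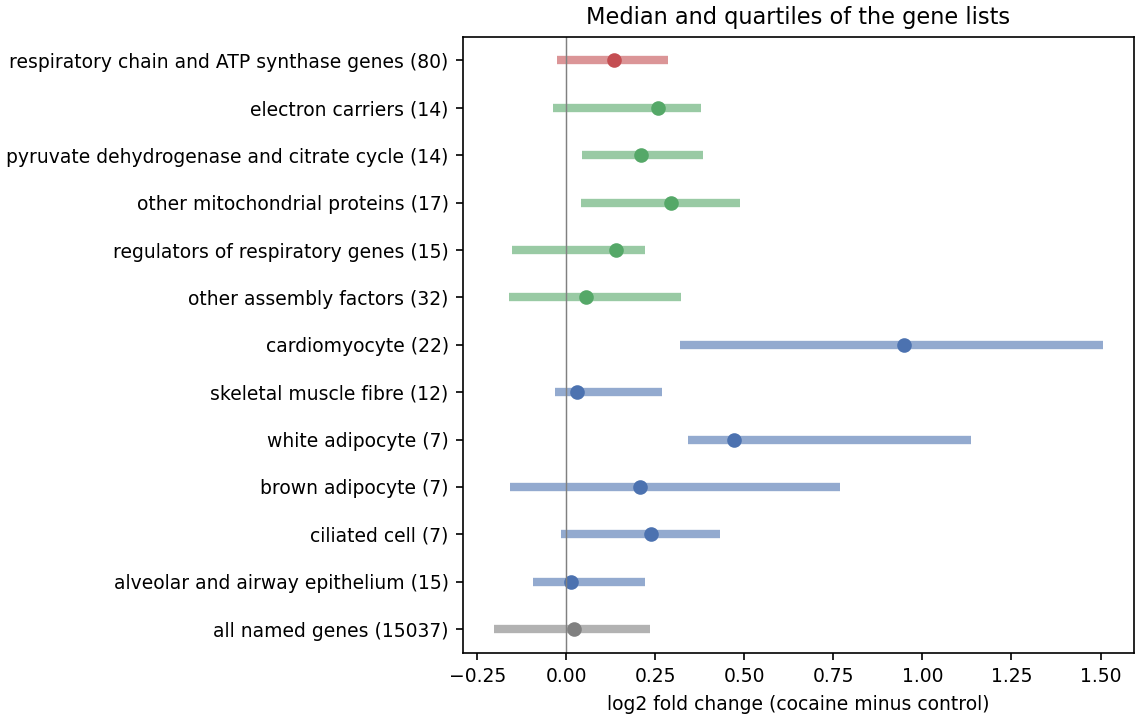
Median (points) and quartiles (bars) of the log2 fold change, cocaine minus control, of the 80 members, of 5 lists of related mitochondrial genes (green), of 6 lists of cell markers (blue) and of all 15037 named genes (grey), with the number of measured genes in brackets. The members have a median of 0.13, between 0.02 for all named genes and 0.29 for other mitochondrial proteins, and the cardiomyocyte markers have the highest median, 0.95.

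Markers of other cell types are given beside the members. The 15 alveolar and airway epithelium markers had a median log2 fold change of 0.01, or -0.01 after median centring, with 8 higher, 6 lower and none past 1.5-fold. The 7 measured ciliated cell markers had a median of 0.24, with 5 higher, against 52.4% of all named genes. Of these 7 markers, 6 were above the limit with cocaine and 5 in the control. With values under the limit raised to it 5 were higher, against 38.8% of all named genes. The ciliated cell list had a summed intensity of 24634 with cocaine and 19662 in the control, of which Tppp3 gave 23955 and 19067. The 7 measured white adipocyte markers were all higher at deposited values, where 52.4% of all named genes were, and their median was 0.47. Once values under the limit were raised to it, 4 of 7 were higher, against 38.8% of all named genes, and their median was 0.21. At least 1.5-fold higher were 3 of the 7 at deposited values, against 4.63% of all named genes, and 2 at that floor. Adipoq, the largest rise of all named genes at deposited values, stood at 352 with cocaine and 24.7 in the control. That control value was under the limit, which made Adipoq at least 4.92-fold higher. Fabp4 stood at 694 against 235 (1.56). The sums of the 7 were 7904 with cocaine and 6000 in the control, of which Lpl, made by many cell types, gave 6606 and 5552. Above the limit lay 4 of the 7 with cocaine and 3 in the control. What these cell types contributed to the respiratory chain values was not tested.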

How the data were processed

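Normalized intensities were analysed as deposited by the authors, on a linear scale, with 1 value per probe set and array. MAS5 is named in the submitters' processing notes and the Transcriptome Analysis Console in the methods of the study, with versions, genome build and annotation not given in the sources used here, so what was done to background and to low values before deposit is unknown. Arrays are limited in precision by their number, 1 per condition, and no test was made.

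The platform annotation paired 15049 of 24834 probe sets with 1 symbol and 0 with more, and the 9785 others were left out. Values were log2-transformed without a pseudocount, then averaged where a gene had more than 1 probe set. All 80 members carried in the probe set ID the chromosome that RefSeq (GRCr8) gives for the gene. Promoter sequences were those of RefSeq on GRCr8, matched by gene ID.

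A fold of 1.5 stood in for a call. Named were the members of the qPCR panel, core and catalytic subunits, isoform pairs, the largest differences in each complex and all members past 1.5-fold, with others added after their values were seen, and in each list of related genes the 2 largest changes at deposited values, those under the limit included, with Surf1 and Higd2a added after their values were seen. Members and lists were chosen with earlier results of these data known. Alternatives were median centring, quantile normalization, loess (span 0.3), floors at the 25th percentile and at the background limit, a filter at that limit, the highest probe set, subunits only, and thresholds of 2-fold and of 0.32 on the log2 scale. On simulated data with known shifts, larger than most differences seen here, the log2 fold change was checked at deposited values and after each rescaling. The background limit, the gene classes and the motif search were not checked in this way. Software was statsmodels 0.14.6, pandas 2.3.3, numpy 2.4.6 and scipy 1.17.1 under Python 3.11.15, with plots from matplotlib 3.10.9.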

Additional observations from a re-analysis of the deposited data

How the results depend on the processing

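Of 100 values recomputed under the alternatives, 16 moved by more than 0.1 on the log2 scale, by more than 1.5 times for a count, or out of the binomial interval of the main share. That interval treats the members as independent draws, which genes read on the same arrays are not, so it served only as a tolerance. It is wide enough to hold the fall of the share of higher members to 57.5% under quantile normalization, against 68.8%. The other 84 say little of stability, since 0.1 is close to the size of the medians, median centring cannot alter a difference of 2 genes, and the highest probe set cannot alter members with 1 probe set each. The count of members at least 1.5-fold higher, 4, was 1 at a threshold of 2-fold, 19 at a log2 difference of 0.32, and 11 at that difference under quantile normalization and under loess, settings chosen after seeing the data. That of members at least 1.5-fold lower, 1, was 3 at a log2 difference of 0.32, 5 at that difference under quantile normalization and under loess, and 0 at 2-fold, after quantile normalization, after loess, with the floor at the background limit and among members above the limit on both arrays, where Cox8b, the only such member, was raised to the limit or left out in the last 2 settings and fell short of the threshold in the others. The difference Cox6a2 minus Cox6a1, 1.41, was 1.54 after quantile normalization, 1.53 after loess and 0.69 with the floor at the background limit, which raised the control value of Cox6a2. The difference Cox8c minus Cox8a, 0.10, was 0.21 after loess. Loess took Cox8c from -0.116 to -0.085 and Cox8a from -0.219 to -0.292. The median of the members ranged from 0.06 to 0.14, and that of complex II changed sign, as given in the report. No paired analysis was possible because each condition has 1 array. Without replicates, differences of the size seen in most members cannot be told from the spread between samples or arrays.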
